A study of Mus musculus with 6 samples.

Results

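The strongest constitutive regions were the merged ATAC peaks whose fold was at least 25 in every one of 6 libraries of mouse visual cortex (V1) astrocyte nuclei. Peaks of the 6 lists that shared 1 bp or more were merged, the highest fold of each library was taken in each merged region, and the members were chosen by these folds alone. There were 1176 members among 185015 merged regions. Another 89125 regions had a peak in all 6 libraries but stayed under the threshold. The fold of a peak compares the signal at its summit with the background around it in that library. As folds chose the members, those given here are a description and not a result.

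ATAC-seq measures open chromatin, because the Tn5 transposase inserts sequencing adapters where DNA is not covered by nucleosomes. Nuclei were taken at P21 from GR fl/fl mice, in which the gene of the glucocorticoid receptor (GR, Nr3c1) carries loxP sites, and every animal had received an AAV2/5 virus at P0 to P1. In GR-Con the virus encoded ΔCre, an inactive recombinase, and in GR-KO it encoded Cre; both were driven by the astrocyte promoter fragment GfaABC1D and carried EGFP-KASH, a tag of the nuclear envelope used to sort nuclei, and the 4x6T element. There were 3 GR-Con and 3 GR-KO libraries, each from 50000 sorted nuclei of tissue pooled from 3 to 4 mice, so a library is a pool and recombination was limited to cells that the virus reached. The lists held 179462 to 198929 peaks and no read counts, so the depth of the libraries is unknown here.

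Of the 8 astrocyte markers examined, all had a peak within 500 bp of a transcription start site (TSS) in every library, with median folds from 4.52 to 15.5. None of the 4 excitatory neuron markers and none of the 4 inhibitory neuron markers had one in all 6 libraries, although the inhibitory marker Gad2 had one in 5, with folds of 5.10, 4.14 and 5.07 in GR-Con and 3.79 and 3.37 in GR-KO 1 and 3. The 2 oligodendrocyte precursor markers Pdgfra and Cspg4 had median folds of 17.2 and 15.4, above most astrocyte markers, and 2 of 4 microglia markers, 1 of 4 oligodendrocyte and 1 of 3 endothelial markers had a peak in every library. At the Nr3c1 TSS the fold was 7.04, 7.02 and 6.64 in GR-Con and 6.28, 6.27 and 5.91 in GR-KO, so the groups did not overlap, and an exact two-sided permutation test of 3 against 3 libraries cannot give a p under 0.1. Other regions with a peak in all 6 had median folds of 8.88, 8.84 and 8.30 in GR-Con and 8.31, 8.34 and 8.23 in GR-KO. How many regions separate in this way by fold was not counted. A peak at the promoter does not show whether the floxed exon was removed. No marker of any of these cell types and no TSS of Nr3c1 lay in a member.

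Open chromatin that many cell types share is known mostly from promoters and insulators. Promoters of housekeeping genes hold sites for general activators such as ETS factors, NFY and ZNF143, and keep a nucleosome-free stretch just before the TSS. CTCF, the insulator protein that anchors chromatin loops, binds a long motif mostly away from promoters. Enhancers, in contrast, differ between cell types, and in astrocytes many carry sites for nuclear factor I (NFI), SOX and AP-1 proteins.

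The sequences below are those of members of highest fold, with Gins4 and Rfc5 added from the lists described further on. They are read from the mm10 reference on the plus strand, 30 bp to each side of the median summit at a TSS and 50 bp to each side elsewhere, and none overlaps an annotated UTR. In the first set, at TSSs, capitals mark the ETS core (CGGAAG or CTTCCG) and the CCAAT box (CCAAT or ATTGG).
Kif22, chr7:127042476-127042536: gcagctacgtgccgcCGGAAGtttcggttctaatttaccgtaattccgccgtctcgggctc
Setdb1, chr3:95357222-95357282: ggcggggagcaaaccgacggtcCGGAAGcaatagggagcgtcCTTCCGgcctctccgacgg
Mcm10, chr2:5012804-5012864: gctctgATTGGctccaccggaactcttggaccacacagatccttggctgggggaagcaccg
Gins4, chr8:23237746-23237806: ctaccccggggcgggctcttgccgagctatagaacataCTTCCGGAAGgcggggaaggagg
Rfc5, chr5:117389064-117389124: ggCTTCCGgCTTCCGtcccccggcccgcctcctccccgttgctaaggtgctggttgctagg
2610005L07Rik, chr8:20424807-20424867: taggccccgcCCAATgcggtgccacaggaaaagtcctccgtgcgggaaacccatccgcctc
Gm21769, chr8:20122235-20122295: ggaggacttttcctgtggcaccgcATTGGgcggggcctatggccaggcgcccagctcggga

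The second set holds members of highest fold over 500 bp from any TSS, where capitals mark a match to the 12-base CTCF consensus with 1 mismatch allowed. The sequences near Pdia4 (that of the highest median fold of all), Igf2bp3 and Slc17a9 had no such match.
Near Usp3, chr9:66646379-66646479: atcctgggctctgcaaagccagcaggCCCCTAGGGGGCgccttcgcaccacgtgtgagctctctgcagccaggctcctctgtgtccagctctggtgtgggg
Near Igf2bp3, chr6:49236461-49236561: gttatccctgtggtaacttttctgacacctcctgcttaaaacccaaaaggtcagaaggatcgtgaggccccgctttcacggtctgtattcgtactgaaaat
Near Rnf144b, chr13:47288597-47288697: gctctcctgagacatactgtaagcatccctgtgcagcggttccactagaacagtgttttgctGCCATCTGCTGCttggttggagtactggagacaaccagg
Near Slc17a9, chr2:180745413-180745513: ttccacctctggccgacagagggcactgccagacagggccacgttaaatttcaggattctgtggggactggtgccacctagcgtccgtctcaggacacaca
Near Pdia4, chr6:47748455-47748555: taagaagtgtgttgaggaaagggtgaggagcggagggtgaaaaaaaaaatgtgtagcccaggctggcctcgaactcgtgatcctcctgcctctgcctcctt

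The folds of the members spanned a narrow range. The median fold over the 6 libraries ran from 25.4 to 37.8 among members, with 927 members under 30, 243 from 30 to 35 and 6 at 35 or more. Within a member the highest library was a median of 1.13 times the lowest, and at most 1.44 times. The highest fold anywhere in a list was 38.4 in GR-Con 1, 40.7 in GR-Con 2, 38.6 in GR-Con 3, 39.97 in GR-KO 1, 38.7 in GR-KO 2 and 39.6 in GR-KO 3, and each of these peaks lay in a member. The median fold of the members was 28.7, 28.9 and 27.5 in the GR-Con libraries and 28.8, 28.3 and 27.99 in the GR-KO libraries, against 8.23 to 8.88 in the other regions with a peak in all 6. By −log10 p, which the rule did not use, the order of the members was nearly the same in any 2 libraries, with Spearman correlations of 0.944 to 0.957 over the 1176 members. By fold the correlations were 0.476 to 0.626, over a range that the threshold cuts off, so the 2 sets of values are not comparable. All libraries share the genome sequence and its mappability, and these correlations across regions carry no test.

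**Figure D1:**
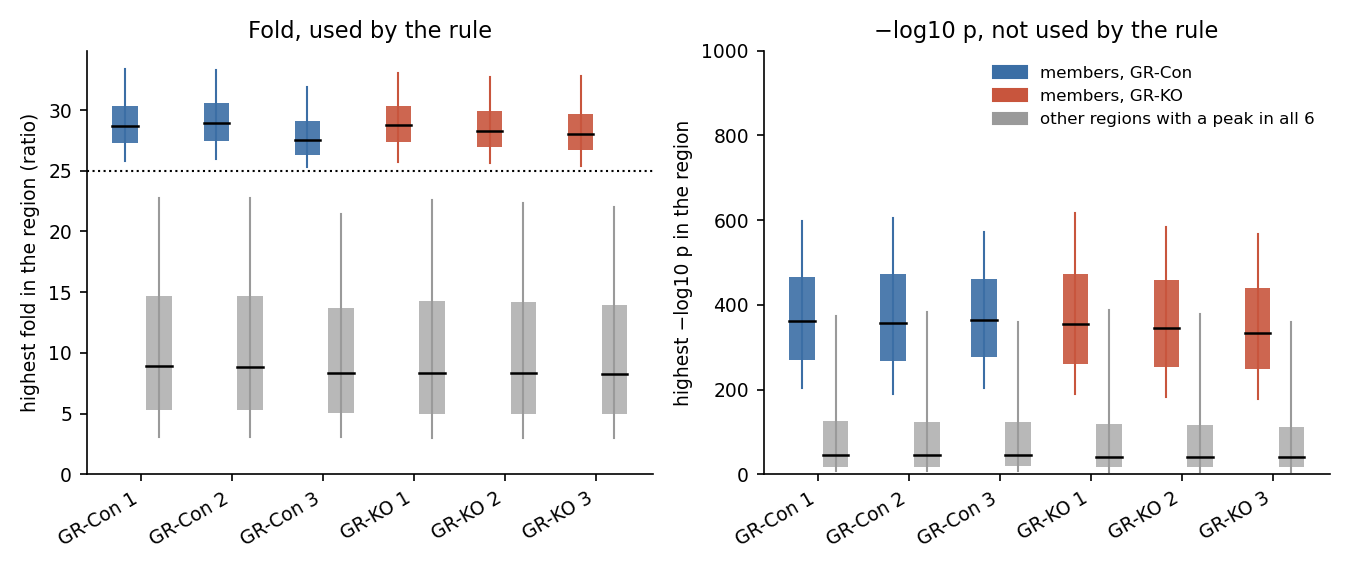
Fold (left, ratio) and −log10 p (right) of the highest peak in each region, by library. Boxes span the 25th to 75th percentile, lines the 5th to 95th and black bars the median of members (GR-Con blue, GR-KO red) and of other regions with a peak in all 6 libraries (grey); the dotted line is the threshold of 25, and the member medians of −log10 p lie between 333 and 365 in every library.

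Strength by fold and strength by −log10 p, which also grows with the number of reads, did not name the same regions. The −log10 p of a peak was not used by the rule, though it comes from the same reads. Members had a median −log10 p of 361, 358 and 365 in the GR-Con libraries, and 356, 345 and 333 in the GR-KO libraries. In the other regions with a peak in all 6 the median was also lower in every GR-KO library. It was 45.8, 45.4 and 45.8 in GR-Con and 41.8, 41.3 and 40.2 in GR-KO. By −log10 p the lowest member of each library stood at percentile 83.7 to 86.5 of its regions, and the median member at 95.02 to 96.3. Yet of the 1176 regions with the highest −log10 p in their weakest library, only 162 were members, which is 13.8% of either list. Those regions had a median fold of 21.9 and a median width of 987 bp, and 88.8% of them lay within 500 bp of a protein-coding TSS. Among members, the rank correlation of width with median −log10 p was 0.415 over 1176 regions. The word strongest is used here for fold only.

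**Figure D2:**
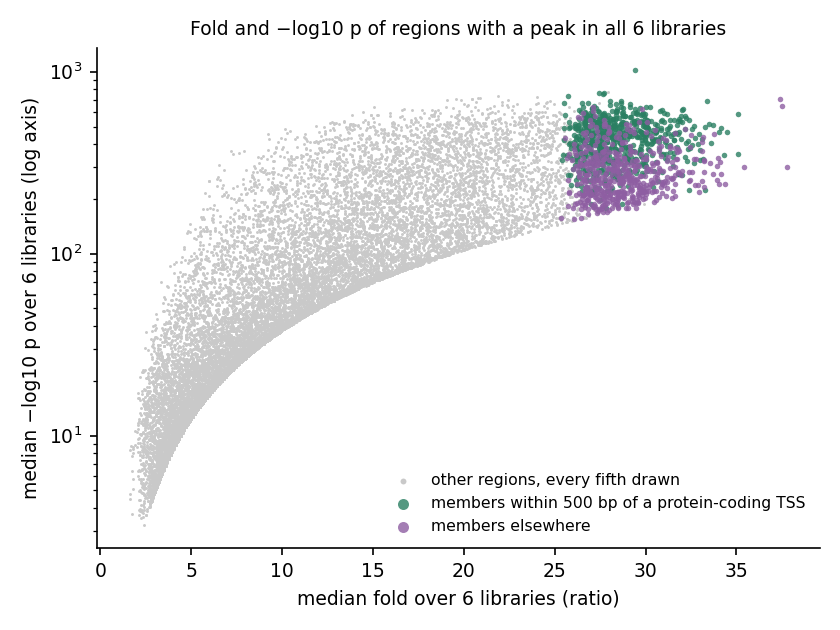
Median −log10 p over 6 libraries (log axis) against median fold (ratio) for regions with a peak in all 6 libraries. Members within 500 bp of a protein-coding TSS (green) and elsewhere (purple) fill the right end of the fold axis between −log10 p of 156 and 1016, while many other regions (grey, 1 in 5 drawn) reach the same −log10 p at a lower fold.

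By the annotation used here, the 10 members of highest median fold fell into 3 kinds: promoters, pseudogene starts and places over 500 bp from any annotated TSS. The highest was the intergenic region chr6:47748245-47748737, whose nearest protein-coding TSS was that of Pdia4 at 64925 bp. It had folds of 37.4, 40.7 and 35.7 in GR-Con and 38.1, 33.9 and 39.6 in GR-KO. The libraries of the groups overlapped there. Next came the starts of the pseudogenes 2610005L07Rik (chr8:20424263-20425146) and Gm21769 (chr8:20122069-20122840), which lie 302572 bp apart. Folds were 38.4, 36.3 and 37.0 in GR-Con and 37.8, 38.7 and 37.2 in GR-KO at 2610005L07Rik. At Gm21769 they were 37.7, 37.39 and 38.6 in GR-Con and 37.37, 34.9 and 35.8 in GR-KO. There the groups did not overlap by fold, nor by −log10 p (714 to 728 in GR-Con, 649 to 707 in GR-KO). Gm21769 was not called in the comparison described further on (adjusted p = 0.618 from limma). The 2 pseudogene starts are copies of each other in opposite orientation, which the sequences above show, and the longest run they share is 98 bases. Rank 4 was held by the intergenic region chr9:66646267-66646800 near Usp3, with folds of 33.7, 37.6 and 35.04 in GR-Con and 37.3, 33.6 and 35.8 in GR-KO and the CTCF match printed above. At chr6:49236383-49236679, 21554 bp from the TSS of Igf2bp3, folds were 35.6, 33.9 and 32.8 in GR-Con and 39.97, 33.3 and 34.9 in GR-KO, and this was the narrowest of all members at 297 bp.

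Of the 10, 4 had at least 1 near-identical copy elsewhere on the reference chromosomes (90% identity or more over at least 150 of the 201 bp at the summit), as had 29 of all 1176 members. These were the regions near Pdia4 with 13 copies and near Igf2bp3 with 2 copies, for which the annotation used here names no gene at the summit, and the 2 pseudogene starts with 6 copies each. Unplaced sequence was not searched and repeat-masked letters could not start a match, so the numbers of copies are lower limits. Copies of other regions were not searched, so no share stands beside the 29. Where copies are near identical, reads cannot be assigned to 1 place with certainty, and the pipeline was run with its multimapping setting at 0. The part of such copies in the folds was not tested, and leaving out these 29, an alternative added after the values were seen, gave 56.2% of members at protein-coding TSSs, CTCF in 17.4% of distal members and ETS in 22.6% of member promoters, next to 56.3%, 17.1% and 22.4% with them.

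The other 5 of the 10 were promoters of protein-coding genes. Cdc25c, a phosphatase that starts mitosis, had folds of 35.6, 34.4 and 36.3 in GR-Con and 36.0, 34.3 and 34.6 in GR-KO, with its summit 109 bp upstream of the TSS (chr18:34751441-34752008). Kif22, a kinesin that moves chromosomes on the spindle, had 34.0, 36.7 and 35.8 in GR-Con and 36.1, 34.4 and 33.5 in GR-KO (chr7:127042176-127042915). L3mbtl2, a Polycomb group protein, had 33.9, 34.98 and 33.9 in GR-Con and 36.1, 35.5 and 32.0 in GR-KO (chr15:81663582-81664426). In these 3 promoters the ranges of the groups overlapped. Setdb1, a histone methyltransferase that silences repeats, had 34.2, 35.3 and 32.6 in GR-Con and 33.9, 34.9 and 34.5 in GR-KO (chr3:95356730-95357428). Mcm10, which acts at the start of DNA replication, had 35.1, 36.5 and 32.9 in GR-Con and 34.9, 33.4 and 32.5 in GR-KO (chr2:5012479-5013193). Again no group stood apart. The 2 remaining regions among the 5 of highest fold far from any TSS were near Rnf144b (chr13:47288369-47288976, median fold 34.1) and near Slc17a9 (chr2:180745133-180745797, median fold 34.1).

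At the threshold itself the order was set by hundredths of a unit. The members just inside were the promoters of Rsl24d1, a ribosome assembly factor, and Rfc5, a subunit of the replication clamp loader, and the start of the long noncoding RNA Gm6712, each with a lowest fold of 25.0. The 3 regions just outside were the promoters of Nufip1, Ccdc71 and Rttn, each with a lowest fold of 24.99. At Nufip1, folds were 25.2, 24.99 and 26.0 in GR-Con and 28.4, 25.7 and 26.3 in GR-KO, so a single library kept it out.

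Members lay at promoters far more often than other open regions, and this property was not used by the rule. The summit was within 500 bp of a protein-coding TSS in 662 members, or 56.3% (95% exact interval 53.4 to 59.2), against 13.7% of the other regions with a peak in all 6 libraries and 7.997% of all merged regions. Introns held 14.5% of members (12.5 to 16.6) but 47.0% of the other 6-library regions, and intergenic sequence held 26.0% (23.5 to 28.6) against 32.3%. Exons held 1.28% of members against 4.74%, and starts of other genes 1.96% against 2.28%. The intervals treat regions as independent and cover counting error only. Of the 491 members over 500 bp from any TSS, 312 or 63.5% were 5000 to 50000 bp from the nearest protein-coding TSS, compared with 49.3% of the other 6-library regions of this kind, and 149 or 30.3% were farther away, compared with 39.6%.

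**Figure D3:**
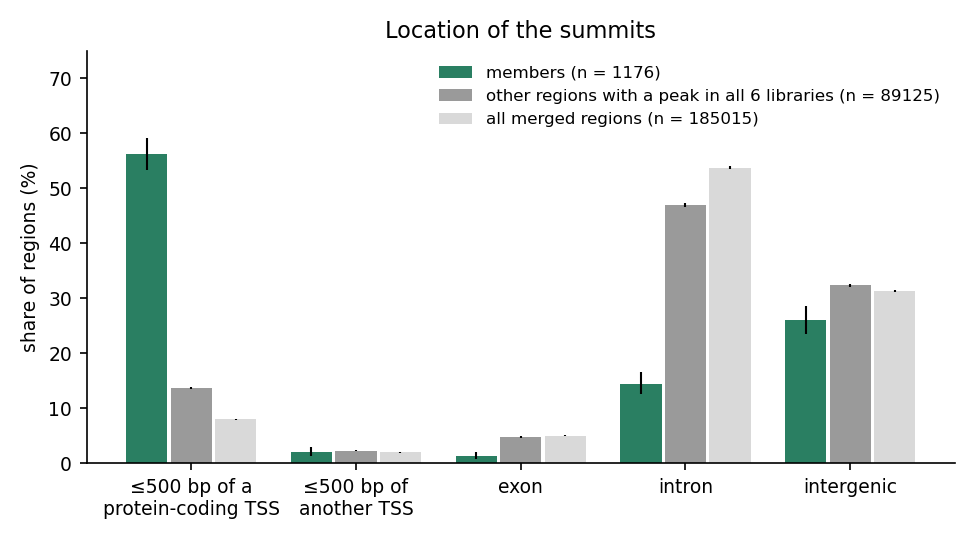
Share of regions (%) by the location of their median summit, for members, other regions with a peak in all 6 libraries and all merged regions; bars of error are 95% exact binomial intervals. The share within 500 bp of a protein-coding TSS was 56.3% in members and 13.7% in the other 6-library regions, and the shares in introns were 14.5% and 47.0%.

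Summits at member promoters were less spread around the TSS than those at other promoters. The summit lay upstream of the TSS in 82.9% of the 662, compared with 70.1% of the 12192 other 6-library regions at a protein-coding TSS. Its median position was −30 bp (25th to 75th percentile −57 to −11), while in the other promoters it was −29 bp with a wider range of −76 to 8. Merged regions at member promoters were narrower, with a median width of 829.5 bp against 993 bp. The GC content within 200 bp of the summit had a median of 59.6% against 64.1%, so the members were not the most GC-rich promoters. Protein-coding starts in both directions within 1000 bp were found at 67 member promoters, which is 10.1%, and at 8.56% of the others.

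Summits of members lay close together in the different libraries. The strongest summit moved by a median of 11 bp over the 6 libraries, and by 2 to 38 bp over all 1176 members. In the other 6-library regions the median was 26 bp and the highest 1782 bp. The length covered by peaks had a median of 647 to 690 bp per library in members and 458 to 501 bp in the other regions. More than 1 summit was called in 54.5 to 65.6% of members per library, compared with 39.4 to 46.0% of the others. Merged regions over all libraries had a median width of 768.5 bp (297 to 1335) in members.

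Motifs of general promoter factors were more frequent at member promoters than at other promoters. A match within 100 bp of the summit on either strand was counted, and motifs may overlap. The 8-base ETS motif CCGGAAGT stood at 148 of 662 member promoters, or 22.4% (19.2 to 25.7), against 6.30% of the other 6-library promoters. Its core CGGAAG, a form added after the values were seen, stood at 53.9% (50.0 to 57.8) against 23.8%. Over all merged regions the 8-base motif was in 0.70%. The motif of ZNF143 (ACTACA, any base, TTCC) was at 6.80% (5.00 to 8.99) against 1.82%, and that of YY1 (AAGATGGCG) at 5.29% (3.71 to 7.28) against 2.57%. The CCAAT box of NFY was found in 47.0% (43.1 to 50.9) against 30.8%, and in 52.7% of these member promoters its centre was within 20 bp of the summit, against 45.2%. The cyclic AMP response element TGACGTCA stood in 4.98% (3.46 to 6.93) against 3.15%.

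Other promoter motifs did not follow this order. The GC box GGGCGG of SP and KLF factors was less frequent in member promoters, at 55.6% (51.7 to 59.4) against 63.2%. NRF1 sites stood in 2.11% (1.16 to 3.52) against 1.80%, and the E-box CACGTG in 9.21% (7.12 to 11.7) against 7.89%, both with the value of the other promoters inside the interval. RFX sites were at 0.30% (0.0366 to 1.09) against 0.40%, again inside it, while the TATA box was less frequent, at 0.76% (0.25 to 1.75) against 2.67%. The ZBTB33 palindrome was at 1.81% (0.94 to 3.14) against 0.97%, which is also inside it. The median −log10 p was 426 over the 148 member promoters with the 8-base ETS motif and 429 over the 514 without it.

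**Figure D4:**
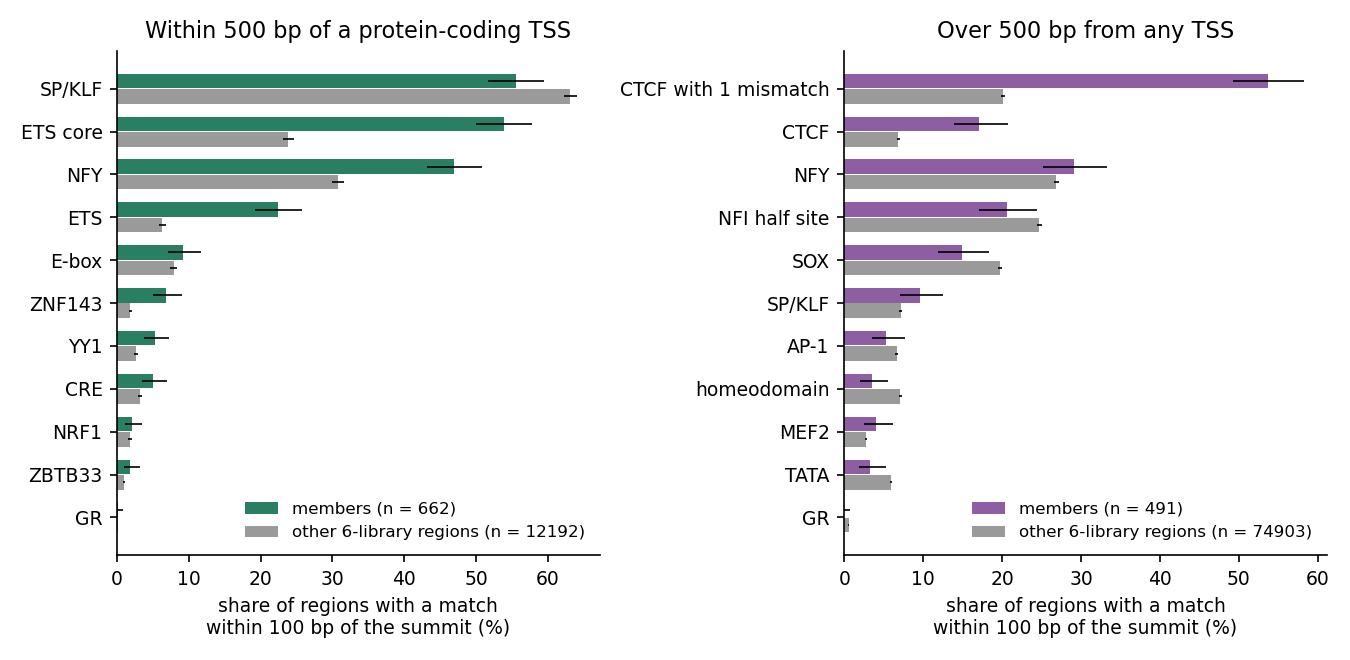
Share of regions (%) with a motif match within 100 bp of the median summit at protein-coding TSSs (left) and over 500 bp from any TSS (right), for members (colour) and other regions with a peak in all 6 libraries (grey); bars of error are 95% exact binomial intervals. ETS, NFY and ZNF143 were more frequent at member promoters (ETS 22.4% against 6.30%), GGGCGG less (55.6% against 63.2%), and CTCF was more frequent at distal members (17.1% against 6.85%).

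Far from TSSs, the CTCF motif was more frequent in members than in other open regions. The exact 12-base consensus stood in 84 of 491 distal members, or 17.1% (13.9 to 20.7), against 6.85% of 74903 other distal 6-library regions. With 1 mismatch allowed, a form added after the values were seen, it stood in 264 distal members, or 53.8% (49.2 to 58.2), against 20.1%. At member promoters the same form stood in 6.04% (4.35 to 8.14) against 6.40%, so the higher share was a feature of the distal members. The median distance of this match from the summit was 15.0 bp, and 60.2% of matches were within 20 bp, compared with 71.8% in the other distal regions. The median −log10 p of distal members was 244 with the match and 299.8 without it.

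Of the motifs of cell-type enhancers searched, those of NFI, SOX, homeodomain and AP-1 proteins were at or under their share in other distal regions, and that of MEF2 was not, at 4.07% of distal members (2.51 to 6.22) against 2.73%, which lies inside the interval. The single NFI arm TTGGCA was in 20.6% of distal members (17.1 to 24.4) against 24.7%, the SOX motif ACAAAG in 14.9% (11.8 to 18.3) against 19.7%, and the homeodomain motif TAATTA in 3.46% (2.03 to 5.49) against 7.07%. For AP-1 (TGANTCA) the share was 5.30% (3.49 to 7.66) against 6.62%, which lies inside the interval. The full NFI palindrome was found in 0 of 1176 members, which allows a share of up to 0.313%, and in 0.06% of all merged regions. Among the 227 distal members without a CTCF match, the NFI arm stood in 26.0% (20.4 to 32.2), the SOX motif in 15.0% (10.6 to 20.3) and the CCAAT box in 36.6% (30.3 to 43.2). Over all distal members the CCAAT box stood in 29.1% (25.1 to 33.4), an interval that holds the 26.9% of the other distal regions.

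The palindrome bound by the glucocorticoid receptor itself (GNACA and TGTNC, 3 bases apart) was found in 1 member, a promoter, which is 0.085% of 1176 (0.00215 to 0.473). Among promoters this was 1 of 662, or 0.15% (0.00382 to 0.84), against 0.11% of the other 6-library promoters. Away from TSSs it was in 0 of 491 members, for which the exact upper limit is 0.75%, against 0.57% of the other distal 6-library regions. Both values of the other regions lay inside these limits, so a difference within either place was not detectable with this number of members. Over both places together the other 6-library regions had 0.50%, just above the members' interval of 0.00215 to 0.473, and the share of promoters differed between these sets (56.3% and 13.7%). Over all merged regions the share was 0.64%. Absence of these letters within 100 bp of a summit says nothing of binding through other sites.

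Genes with a member at their TSS were counted over lists. Over all 21827 protein-coding genes, 729 or 3.34% had a member within 500 bp of a TSS, and these were 5.65% of the 12896 genes with any 6-library region there. Genes of the proteasome, the complex that degrades ubiquitin-tagged proteins, had a member in 8 of 31 cases, or 25.8% (11.9 to 44.6). Of these, Psmb2 and Psmb6, both subunits of the catalytic core, had folds of 30.7 to 34.2 and 27.9 to 30.6 over the libraries. For Psmc4, an ATPase of the cap, and Psma5, another core subunit, folds were 27.5 to 29.9 and 27.6 to 29.3. The other 4 were the core subunit Psma6 and the cap subunits Psmd2, Psmd4 and Psmd12. Ribosomal protein genes had a member in 5 of 75 cases, or 6.67% (2.1999 to 14.9), namely Rps7, Rpl11, Rpl23, Rps26 and Rpsa, with folds of 25.1 to 30.01 over the first 4. Of 37 respiratory chain genes only Sdhc, a subunit of succinate dehydrogenase, had one (folds 25.2 to 28.8).

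None of the other lists held a gene with a member. This was so for 30 astrocyte genes, of which 29 had a 6-library region at the TSS, for 26 glucocorticoid response genes, of which 25 had one, and for 18 early response genes, of which 16 had one. It also held for 16 neuronal genes, 18 genes of other glia and vessels, 30 splicing and RNA-binding genes, 22 annotated chaperone genes and 10 genes of cohesin and CTCF. With lists this short, 0 of 30 still allows a share of up to 11.6% and 0 of 26 up to 13.2%, so the share over all genes is not excluded by these counts.

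Because Cdc25c, Kif22 and Mcm10 stood among the 10 of highest fold, 2 more lists were written after the values were seen, from the known machinery of cell division. Of 79 mitosis genes 26 had a member, or 32.9% (22.7 to 44.4), and of 51 DNA replication genes 10, or 19.6% (9.82 to 33.1). In a tissue of this age most astrocytes no longer divide, which is background and was not measured here. Espl1, the protease that separates sister chromatids, had folds of 35.1, 33.9 and 33.6 in GR-Con and 36.0, 34.1 and 33.5 in GR-KO. Kif2c, a kinesin that takes microtubules apart, had 30.9, 34.6 and 33.1 in GR-Con and 33.1, 31.8 and 32.1 in GR-KO. Among replication genes, the clamp loader subunits Rfc2 and Rfc3 had folds of 31.5 to 34.7 and 29.7 to 32.4, and Gins4, part of the replicative helicase, 27.1 to 30.6. At Rfc2 every GR-KO library (33.97 to 34.7) was above every GR-Con library (31.5 to 33.4) by fold, but by −log10 p the groups overlapped there, with 446 to 515 in GR-Con and 468 to 524 in GR-KO. At the other 4 promoters the groups overlapped by fold. By −log10 p they did not overlap at Kif2c, with 405 to 449 in GR-Con and 364 to 387 in GR-KO. The region at Kif2c was not called in the comparison described below (adjusted p = 0.213 from limma). The lists were made to follow a pattern already seen, so their counts are no independent support of it.

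The comparison of GR-KO with GR-Con asked whether loss of the receptor moved the members within the order of open regions. Regions were ranked by −log10 p within each library, the ranks were turned into normal scores, and the scores were compared with limma over 140360 regions with a peak in at least 2 libraries. A difference of scores is negative where a region stands lower in GR-KO. At an adjusted p under 0.05, limma called 2 members lower and 1 higher, which is 0.17% and 0.085% of 1176. Over all regions tested it called 1571 lower, or 1.12%, and 1470 higher, or 1.05%. Ranked by fold, it called 301 lower and 154 higher over all regions; for members this is no test, since fold chose them. The SE of a member's difference had a median of 0.071.

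The balance of small differences at the members leaned to lower values in GR-KO by −log10 p. At an unadjusted p under 0.05, 101 members or 8.59% were lower and 12 or 1.02% higher, while over all regions 6.84% were lower and 7.5% higher. The members' counts were 27 and 4 without the variance trend, and 52 and 12 without GR-Con 3. In these fits 18217 and 17452 of all 140360 regions passed in either direction. In 171 members (14.5%) the rank of every GR-KO library was below that of every GR-Con library, against 8.74% of all regions, and in 18 (1.53%) it was above, against 11.4%. The median difference was −0.051 over members and 0.0055 over all regions, and 859 members or 73.0% were below 0, against 48.8% of all. Members at protein-coding TSSs had a median of −0.070 and members away from TSSs −0.033, whereas the medians of other 6-library regions in these places were 0.0044 and 0.0020. Without 1 library the members' median stayed between −0.070 and −0.027, the latter without GR-Con 3, whose list was the longest. The values that chose the members had medians above 0: by rank of fold the median difference was 0.022 over members and 0.016 over all regions, and by log2 fold centred on the median of each library it was 0.058 and 0.038. In the latter measure 5 members were lower and 161 higher at an unadjusted p under 0.05, where 14001 of 90301 regions passed in either direction. As fold chose the members, these values are a description only. The part of library depth in this was not tested, since the lists carry no read counts.

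**Figure D5:**
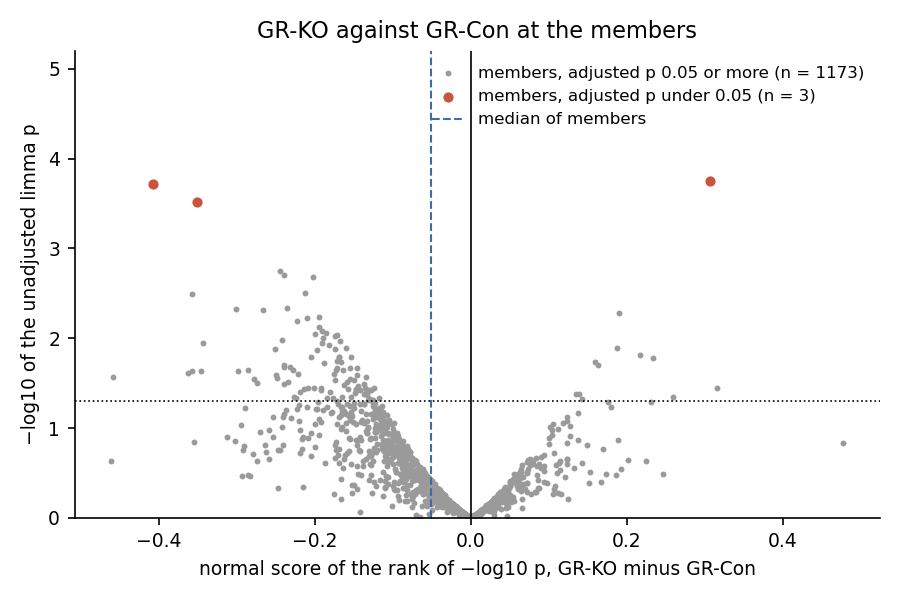
Difference of the normal score of the rank of −log10 p, GR-KO minus GR-Con (horizontal), and −log10 of the unadjusted limma p (vertical) for the 1176 members. The 3 members with an adjusted p under 0.05 are red (2 lower, 1 higher), the dashed line is the members' median of −0.051 and the dotted line an unadjusted p of 0.05.

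The called members were 2 regions lower and 1 higher in GR-KO. The first was the intergenic region chr3:28242502-28243155, whose nearest protein-coding TSS was that of the kinase gene Tnik at 20451 bp. There the −log10 p was 534, 552 and 496 in GR-Con and 451, 447 and 408 in GR-KO, so the groups did not overlap. The score fell by 0.41 in GR-KO (SE 0.090, adjusted p = 0.017 from limma, 0.0060 to 0.921 over alternatives). Its fold did not follow, with 26.5, 28.4 and 25.7 in GR-Con and 28.1, 28.3 and 25.2 in GR-KO.

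Ddx47, an RNA helicase of ribosome assembly, was the second (chr6:135011358-135012088, summit 39 bp upstream of the TSS). There −log10 p stood at 473, 444 and 473 in GR-Con, and at 362, 363 and 374 in GR-KO. Its folds, which the rule used and which are no support for the call, were 31.7, 32.9 and 31.3 in GR-Con and 30.2, 29.8 and 29.8 in GR-KO. The score fell by 0.35 (SE 0.081, adjusted p = 0.023 from limma, 0.0054 to 0.735 over alternatives).

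The third, higher in GR-KO, was the intergenic region chr4:125745736-125746390, for which the nearest protein-coding TSS was that of Grik3, a kainate receptor subunit, at 255400 bp. In GR-Con −log10 p stood at 231, 206 and 212 there, compared with 268, 348 and 329 in GR-KO, without overlap. By fold the groups overlapped, with 28.3, 25.8 and 27.0 in GR-Con and 28.2, 32.2 and 29.4 in GR-KO. The score was higher by 0.31 in GR-KO (SE 0.067, adjusted p = 0.016 from limma, 0.00091 to 0.444 over alternatives). Of the fits that left out a library, the Tnik region passed only without GR-Con 3 (adjusted p = 0.047 from limma) and the Grik3 region only without GR-KO 1 (adjusted p = 0.0097 from limma), while Ddx47 passed in none (0.054 to 0.150). Without the variance trend of limma none of the 3 passed, with an adjusted p of 0.072 at Tnik, 0.235 at Ddx47 and 0.307 at Grik3. With replicate number as a block none passed either (adjusted p from limma 0.052 at Tnik, 0.0501 at Ddx47 and 0.061 at Grik3). The upper ends of the ranges over alternatives come from measures of fold, which the rule used. The sequences of the 2 intergenic summits follow, each with the NFI arm TTGGCA on the plus strand and no CTCF match, and that of Ddx47, whose ETS and YY1 motifs lie within 100 bp of the summit but outside this shorter window.
Near Tnik, chr3:28242714-28242814: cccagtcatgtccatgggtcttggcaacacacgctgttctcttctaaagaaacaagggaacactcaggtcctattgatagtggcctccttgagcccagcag
Near Grik3, chr4:125746050-125746150: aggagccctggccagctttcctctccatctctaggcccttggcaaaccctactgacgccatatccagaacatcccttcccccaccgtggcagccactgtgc
Ddx47, chr6:135011543-135011603: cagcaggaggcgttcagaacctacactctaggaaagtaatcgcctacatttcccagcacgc

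The next members by p did not pass the adjustment in the main fit. Of these, only Bub1b passed in any alternative. Its adjusted p from limma was 0.043 over regions with a peak in all 6 libraries and 0.038 with no filter on the number of libraries. On the lower side the next members were 3 promoters. At Bub1b, a kinase of the spindle checkpoint, −log10 p was 406, 362 and 384 in GR-Con and 322, 283 and 305 in GR-KO (adjusted p = 0.067 from limma). At Fbxo25, which encodes an F-box protein, it was 417, 392 and 398 against 326, 323 and 330.1 (adjusted p = 0.071 from limma), and at Zkscan1, a zinc finger gene, 312, 301 and 285 against 219, 232 and 226 (adjusted p = 0.074 from limma). In all 3 the groups did not overlap. On the higher side were 4 regions away from TSSs: near Rnf144b (adjusted p = 0.120 from limma), 2 regions 20125 and 136373 bp upstream of the TSS of Asap1 (0.189 and 0.205 from limma) and an intron region with its nearest TSS at Celf4 (0.213 from limma). The region near Rnf144b was also among the 5 of highest fold away from TSSs, with a −log10 p of 243, 265 and 254 in GR-Con and 326, 342 and 281 in GR-KO.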

How the data were processed

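ATAC-seq peak lists of 3 GR-Con and 3 GR-KO libraries were used. Per the labels and the paper's methods, the authors processed each library with the pipeline of ENCODE for ATAC-seq (version 2.2.0, multimapping 0, peak p threshold 0.01) on mm10, with peaks called in each library alone; the peak caller is not given in the sources used here. The deposited lists give for each peak a fold, which is a ratio over local background, the −log10 of its p-value and q-value, a capped score that was not used, and a summit, the other column. Without counts, the authors' DiffBind comparison could not be repeated and depth is unknown.

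No peak ended past its chromosome in GRCm38.p6 (0 of 1116429). The lists were not copies of each other, since 0.380 to 0.537% of peaks had identical ends between any 2. Genes were from GENCODE M21, and TSS distances (500 bp) were taken from the median summit. Normal scores of ranks were compared with limma 3.58.1 (R 4.3.3; variance trend, two-sided, Benjamini-Hochberg adjustment over all regions). Intervals are exact (Clopper-Pearson, 95%; scipy 1.17.1). Copies were searched with blastn 2.17.0. Python 3.11.15, pandas 2.3.3 and pysam 0.24.0 were used.

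Members, motifs and gene lists were chosen with earlier results of these data known. Named regions were the 10 members of highest median fold, the 5 highest away from TSSs, the 5 smallest p in each direction, the 3 to each side of the threshold and up to 4 per gene list. Alternatives covered the fold threshold, merging, q-value, measure, filter, trend, TSS distance, motif window, replicate block and each library left out. Replicate numbers are shared by the groups, but the deviations of libraries with the same number correlated by −0.0017 to 0.035 only, so the numbers were not taken to pair them. Libraries are pools of mice, and p-values measure the spread between these pools.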

Additional observations from a re-analysis of the deposited data

How the results depend on the processing

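The count of members rested on the threshold: 5865 regions reached a fold of 20 in every library and 73 a fold of 30, and leaving out a library gave 1207 to 1458. A limit on q, merging of touching peaks and sites around summits each gave 1176. The 3 members called between GR-KO and GR-Con became 0 with ranks of fold or centred log2 fold (both no test here, since fold chose the members), an adjusted p of 0.01, no variance trend, the replicate block or members at a fold of 30. With regions in all 6 libraries, 5 of 1176 members were called, where 1674 of all 90301 regions were lower and 1782 higher. With members at 20, 40 of 5865 were called, where 1571 of all 140360 regions were lower and 1470 higher. With the replicate block the adjusted p from limma of the 3 called members was 0.0501 to 0.0614. Leaving out a library gave 0 to 1 called members. No call was lost with the copied members left out. The score difference near Tnik reversed to 0.068 with ranks of fold and 0.073 with centred log2 fold. The cause of these changes was not tested.

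The share of members at protein-coding TSSs was 49.3% at a fold of 20 and 54.7 to 56.5% without a library. CTCF at distal members moved to 10.7% at a fold of 30 and 53.8% with 1 mismatch, and was 15.2 to 18.5% without a library. ETS at member promoters moved to 16.3% at a fold of 20, 15.7% within 50 bp and 53.9% for the core, and was 22.1 to 22.8% without a library. Median GC was 53.9% at a fold of 30, 58.2% within 100 bp and 55.6 to 55.9% without a library. Median width was 822 bp at 20 and 694 bp at 30, and 3253 and 44 genes had a member at these thresholds. No member aligned to the mitochondrial genome under the 3 settings run or without any 1 library. Depth, which the lists do not give, limits any reading of −log10 p between libraries.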

Other observations

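Genes of zinc finger proteins, many of which silence repeats, were counted after the values were seen. Of 424 protein-coding genes whose symbols begin with Zfp, Zscan or Zkscan, 44 had a member within 500 bp of a TSS, or 10.4% (95% exact interval 7.64 to 13.7), against 3.34% of all protein-coding genes. Many of these genes stand in clusters of similar sequence. Of the 29 members with a near-identical copy, 6 lay at such a gene, 17 at any protein-coding TSS and 10 on chromosome 17.

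Members were spread over all autosomes, from 30 on chromosome 18 to 124 on chromosome 2. Chromosome 7 held 100 members, or 8.50%, against 6.004% of the other regions with a peak in all 6 libraries. The X chromosome held 10 members, or 0.85%, against 2.23%, and the Y chromosome none. No member lay within 500 bp of an annotated transfer RNA gene, while 179 of the other 89125 6-library regions did. For 0 of 1176 the exact upper limit is 0.313%, which is above the share of the other regions. Repeat-masked letters filled at least 50% of the 201 bp at the summit in 3 members, or 0.26%, against 2.23% of the other 6-library regions. Among these 3 was the member of highest median fold, near Pdia4, at 63.7%.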
